A study of Mus musculus with 2 samples.

Results

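The 9 genes described here are regulators and structural genes of the trophoblast, the lineage that forms the placenta, namely Elf5, Cdx2, Eomes, Krt8, Krt18, Hand1, Tfap2c, Gata3 and Tead4. They were chosen by name and located by their RefSeq position among the 37723 genes whose start could be oriented. Each locus ran from 5 kb outside the gene start to 5 kb outside the gene end, and a CpG was compared when it had at least 10 reads in both libraries. DNA methylation was measured by bisulfite sequencing in 2 lines of mouse haploid embryonic stem cells with 1 library each, A129-2 from the 129Sv strain and AOS-14 from the C57BL/6 strain. Where 2 values stand together without a name, the first is that of A129-2. Both lines were derived by cell sorting from what the labels call AG-haploid embryos and were grown in embryonic stem cell medium. Whether each line is 1 clone is not stated in the labels. Line and strain cannot be told apart, and no difference between them has a replicate check. The tests below compare the reads of these 2 libraries, not the strains.

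Trophoblast and embryo are separate by the blastocyst stage, when targets of Tead4 are active in outer cells and inner cells keep the pluripotency genes. In embryonic stem cells the trophoblast genes are held silent, some by Polycomb proteins at CpG islands that stay unmethylated, and others with the help of DNA methylation. Elf5, an ETS family transcription factor, is the best known of the latter, because its promoter is methylated in embryonic stem cells and unmethylated in trophoblast stem cells, where it forms a loop with Cdx2 and Eomes.

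The 9 loci held 821 compared CpGs, from 19 at Krt8 to 194 at Gata3. Their median depth per locus was 63.5 to 104 reads in A129-2 and 62 to 186.5 reads in AOS-14. Over all 1030368 compared CpGs of the libraries the median was 79 and 97 reads and the mean level 9.48% and 14.998%. CpGs inside the motif CCGG, at which the enzyme of reduced representation libraries cuts, made up 33.4% of all compared CpGs and had mean levels of 18.9% and 27.9%, against 4.74% and 8.49% at other CpGs. Levels at the 9 loci are therefore given for all compared CpGs and for those outside CCGG.

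The sequences before 4 RefSeq gene starts show how unevenly CpGs are spread. The first start of Elf5 and that of Krt8 are shown because they have few CpGs, the second start of Elf5 for comparison with the first, and Gata3 because its compared CpGs lie there. Each holds the 250 bases before the start, 5′ to 3′ on the gene's strand, from RefSeq for GRCm38.p6, with every CpG in capitals.
Elf5, the first start, plus strand, chr2:103411848-103412097: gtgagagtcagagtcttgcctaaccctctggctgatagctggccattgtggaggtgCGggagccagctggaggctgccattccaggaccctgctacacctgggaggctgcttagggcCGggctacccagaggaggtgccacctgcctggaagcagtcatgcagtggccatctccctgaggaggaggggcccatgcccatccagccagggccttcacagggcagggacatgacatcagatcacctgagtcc
Elf5, the second start, plus strand, chr2:103423818-103424067: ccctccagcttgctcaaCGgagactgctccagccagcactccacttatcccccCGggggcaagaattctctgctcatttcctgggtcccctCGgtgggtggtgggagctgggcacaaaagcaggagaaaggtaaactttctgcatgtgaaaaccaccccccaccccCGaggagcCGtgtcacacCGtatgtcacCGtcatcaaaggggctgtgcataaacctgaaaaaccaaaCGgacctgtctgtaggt
Krt8, minus strand, chr15:102004343-102004592: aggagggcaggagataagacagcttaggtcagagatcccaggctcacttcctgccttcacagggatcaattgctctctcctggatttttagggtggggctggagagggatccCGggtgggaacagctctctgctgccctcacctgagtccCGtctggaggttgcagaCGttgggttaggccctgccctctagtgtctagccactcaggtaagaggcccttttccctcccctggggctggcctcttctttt
Gata3, minus strand, chr2:9878601-9878850: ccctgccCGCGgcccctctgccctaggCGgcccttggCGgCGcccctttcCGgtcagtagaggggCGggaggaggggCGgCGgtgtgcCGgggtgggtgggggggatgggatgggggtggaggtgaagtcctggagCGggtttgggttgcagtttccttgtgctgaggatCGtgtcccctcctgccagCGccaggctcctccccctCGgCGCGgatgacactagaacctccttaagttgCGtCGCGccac
The 4 sequences hold 2, 8, 3 and 19 CpGs. Of the 32851 promoters in the RefSeq table, 29.0% have 2 or fewer CpGs in these 250 bases, 37.8% have 3 or fewer, and 59.7% have 8 or fewer, as the second start of Elf5 does. The motif CCGG, which reads the same on both strands, occurs 1 time in each Elf5 sequence, 1 time in that of Krt8 and 2 times in that of Gata3, and 47.1% of all promoters hold it. No CpG of the Elf5 and Krt8 sequences was compared. In the Gata3 sequence 9 CpGs were compared, with mean levels of 1.63% (A129-2) and 2.38% (AOS-14).

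Across the 9 loci methylation was low in both lines and lower in A129-2. The mean over the 821 CpGs was 6.77% (A129-2) and 9.004% (AOS-14), and outside CCGG (578 CpGs) it was 2.89% and 3.94%. No CpG reached 50% in A129-2, and 9 did in AOS-14. The level was lower in A129-2 at 454 CpGs (55.3%), higher at 217 and equal at 150. Of all 1030368 compared CpGs 62.4% were lower in A129-2, a larger share than in the 9 loci. Outside CCGG, 273 of the 578 CpGs were lower, 158 higher and 147 equal. These counts of direction involve no test. Over the 821 CpGs, which share 2 libraries and are not independent, the 2 sets of levels had Pearson's r = 0.859. Within the 243 CpGs in CCGG r was 0.654, and within the 578 others 0.876.

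Regions were compared gene by gene, with the promoter taken as 1 kb before and 0.5 kb after the gene start, the body as the rest of the gene and the flanks as the remaining parts of the locus. Regions with at least 5 compared CpGs were tested by Fisher's exact test on summed reads, two-sided, with Benjamini-Hochberg adjustment over all genes' regions of that kind. At an adjusted p under 0.05 the body was lower in A129-2 in 9 of 9 genes, where 81.1% of all 15512 tested bodies were. The promoter was lower in 4 of 7 tested genes (30.8% of all 15012 tested promoters), the upstream flank in 1 of 3 (60.6%) and the downstream flank in 3 of 4 (61.9%). No tested region of these genes was higher at that threshold, against 0.793% of promoters, 0.593% of bodies, 1.06% of upstream and 1.21% of downstream flanks. Outside CCGG, 5 of 8 bodies (70.7% of all), 0 of 5 promoters (11%), 0 of 1 upstream flank (40.6%) and 2 of 3 downstream flanks (40.8%) were lower. The Krt8 and Gata3 promoters, the Krt8 body and the Tfap2c downstream flank had passed with CCGG. Outside it they held fewer than 5 CpGs and were not tested.

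None of the 9 genes had a region that differed by 25 percentage points or more. Among all tested bodies 1.24% were lower by that much, among promoters 0.5%, and among upstream and downstream flanks 1.85% and 1.7%. A drop of 25 points needs a level of at least 25% in AOS-14, which 2 of the 9 bodies, 1 downstream flank and none of the tested promoters or upstream flanks had. Differences of at least 10 points passed at the body of Krt8 and the downstream flank of Elf5, where 27% of all tested bodies and 22.5% of all tested downstream flanks did. None of the tested promoters and upstream flanks of the 9 genes did so (4.6% and 22.9% of all). With a minimum of 5 reads instead of 10, the Krt8 body differed by -9.46 points over 12 CpGs and no longer reached that size. Weighted by reads, the body of Tead4 reached it, at -11.9 points against -6.91 as a mean over CpGs.

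**Figure D1:**
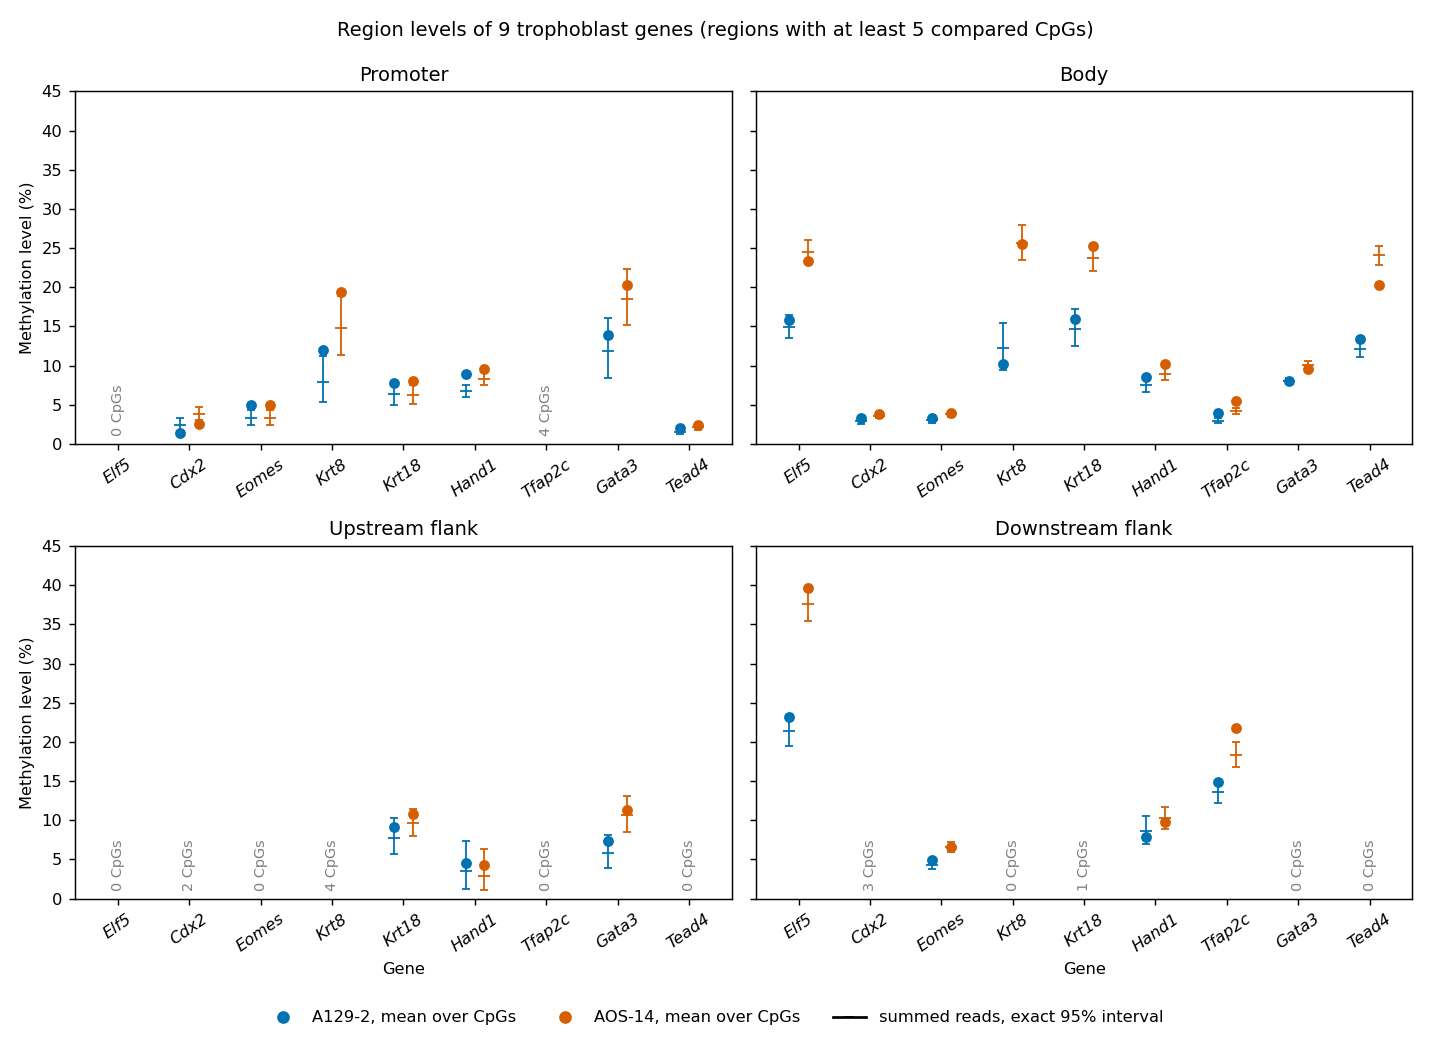
Region levels of the 9 genes in percent, by promoter, body, upstream and downstream flank, with A129-2 in blue and AOS-14 in orange. Dots are means over compared CpGs, and horizontal marks with bars are summed reads with exact 95% intervals that cover counting error only. Regions with fewer than 5 compared CpGs show that number instead. The Elf5 downstream flank stands highest, at 23.1% and 39.6%.

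By body level the genes fell into a higher and a lower set. In AOS-14 the bodies of Krt8, Krt18, Elf5 and Tead4 had means of 25.5%, 25.2%, 23.3% and 20.3%. Hand1 and Gata3 followed at 10.2% and 9.52%, then Tfap2c, Eomes and Cdx2 at 5.52%, 3.94% and 3.81%. Weighted by reads, the 4 higher bodies had overlapping exact 95% intervals in AOS-14, from 22.1 to 25.3% at Krt18 up to 23.5 to 28.01% at Krt8, so their order is not resolved. The same 4 genes had the highest bodies in A129-2, at 15.96% in Krt18, 15.9% in Elf5, 13.4% in Tead4 and 10.2% in Krt8. The median body of all tested genes had 11.5% (A129-2) and 18.0% (AOS-14), so 5 of the 9 bodies lay below it in both lines and that of Krt8 in A129-2 only. Outside CCGG the bodies of Krt8, Krt18, Elf5 and Tead4 were still the highest in AOS-14. In A129-2 the Krt8 body had 3.19% there over 4 CpGs, below Hand1 at 5.36% and Gata3 at 4.01%.

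**Figure D2:**
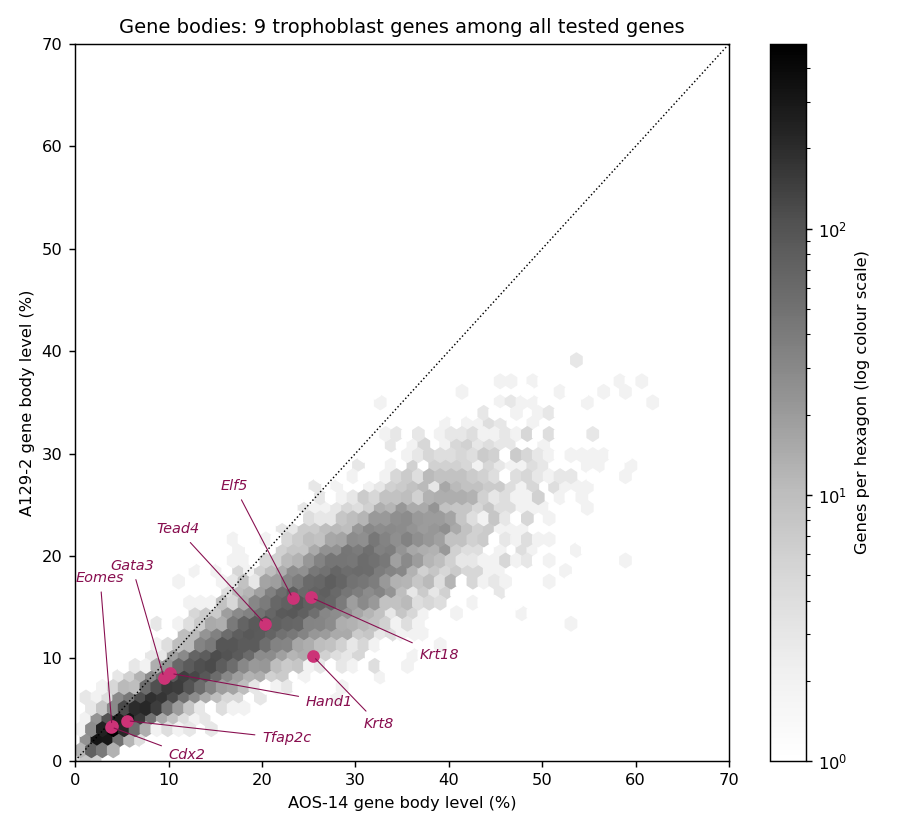
Mean gene body level in AOS-14 (x axis, percent) and A129-2 (y axis, percent) for all 15512 tested genes as hexagons shaded by the number of genes on a log scale and the 9 trophoblast genes as labelled points, with a dotted line of equal levels. Cdx2, Eomes and Tfap2c sit lowest, at 3.81%, 3.94% and 5.52% in AOS-14, and Krt8 lies farthest from the line among the 9, at 25.5% and 10.2%.

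Elf5 (chromosome 2, 103412098 to 103450989, plus strand) was the most methylated locus of the 9, and its promoter could not be measured. The promoter window held 1 listed CpG and no compared one, and the upstream flank held 0. The body had 15.9% (A129-2) and 23.3% (AOS-14) over 22 CpGs (Fisher's exact test on 2272 and 3297 reads, adjusted p = 2.77e-18). Single CpGs of the body ran from 0 to 38.7% in A129-2 (median 13.8) and from 0 to 46.6% in AOS-14 (median 25.5), so the ranges of the lines overlapped widely. Outside CCGG the body had 12.4% and 20.3%.

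Within Elf5 the gap between the lines depended on the position. RefSeq gives Elf5 a second start at 103424068, 11970 bases inside the gene. The 7 CpGs of a promoter window around that start had 17.5% (A129-2) and 19.2% (AOS-14), with 3 of 7 lower in A129-2. Only 2 of these lie outside CCGG, at a mean of 4.79% and 4.29%. A run of 8 CpGs 9 to 9.1 kb inside the gene, before the second start, had 14.8% and 22.6%, and all 8 were lower in A129-2. Towards the gene end, a run of 7 CpGs 37.5 to 37.6 kb inside had 15.4% and 28.2%, again with all 7 lower. The runs are CpGs at most 300 bases apart, and they were described without a test.

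The downstream flank of Elf5 had 23.1% (A129-2) and 39.6% (AOS-14) over 11 CpGs, a difference of -16.5 points (Fisher's exact test on 1638 and 1851 reads, adjusted p = 1.74e-24). The 11 CpGs all had the lower level in A129-2, from 10.2 to 38.6% there (median 22.6) and from 18.1 to 60.6% in AOS-14 (median 35.4). They lie inside Cat, the catalase gene (103453904 to 103485153), which runs on the minus strand, so its end faces that of Elf5. Outside CCGG the flank had 17.9% and 33.9%, a difference of -16.01 points (Fisher's exact test, adjusted p = 4.22e-22). Its CpG at 103454777, outside CCGG, had 23.9% of 209 reads in A129-2 and 56.5% of 154 in AOS-14 (Fisher's exact test, adjusted p = 1.63e-08).

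**Figure D3:**
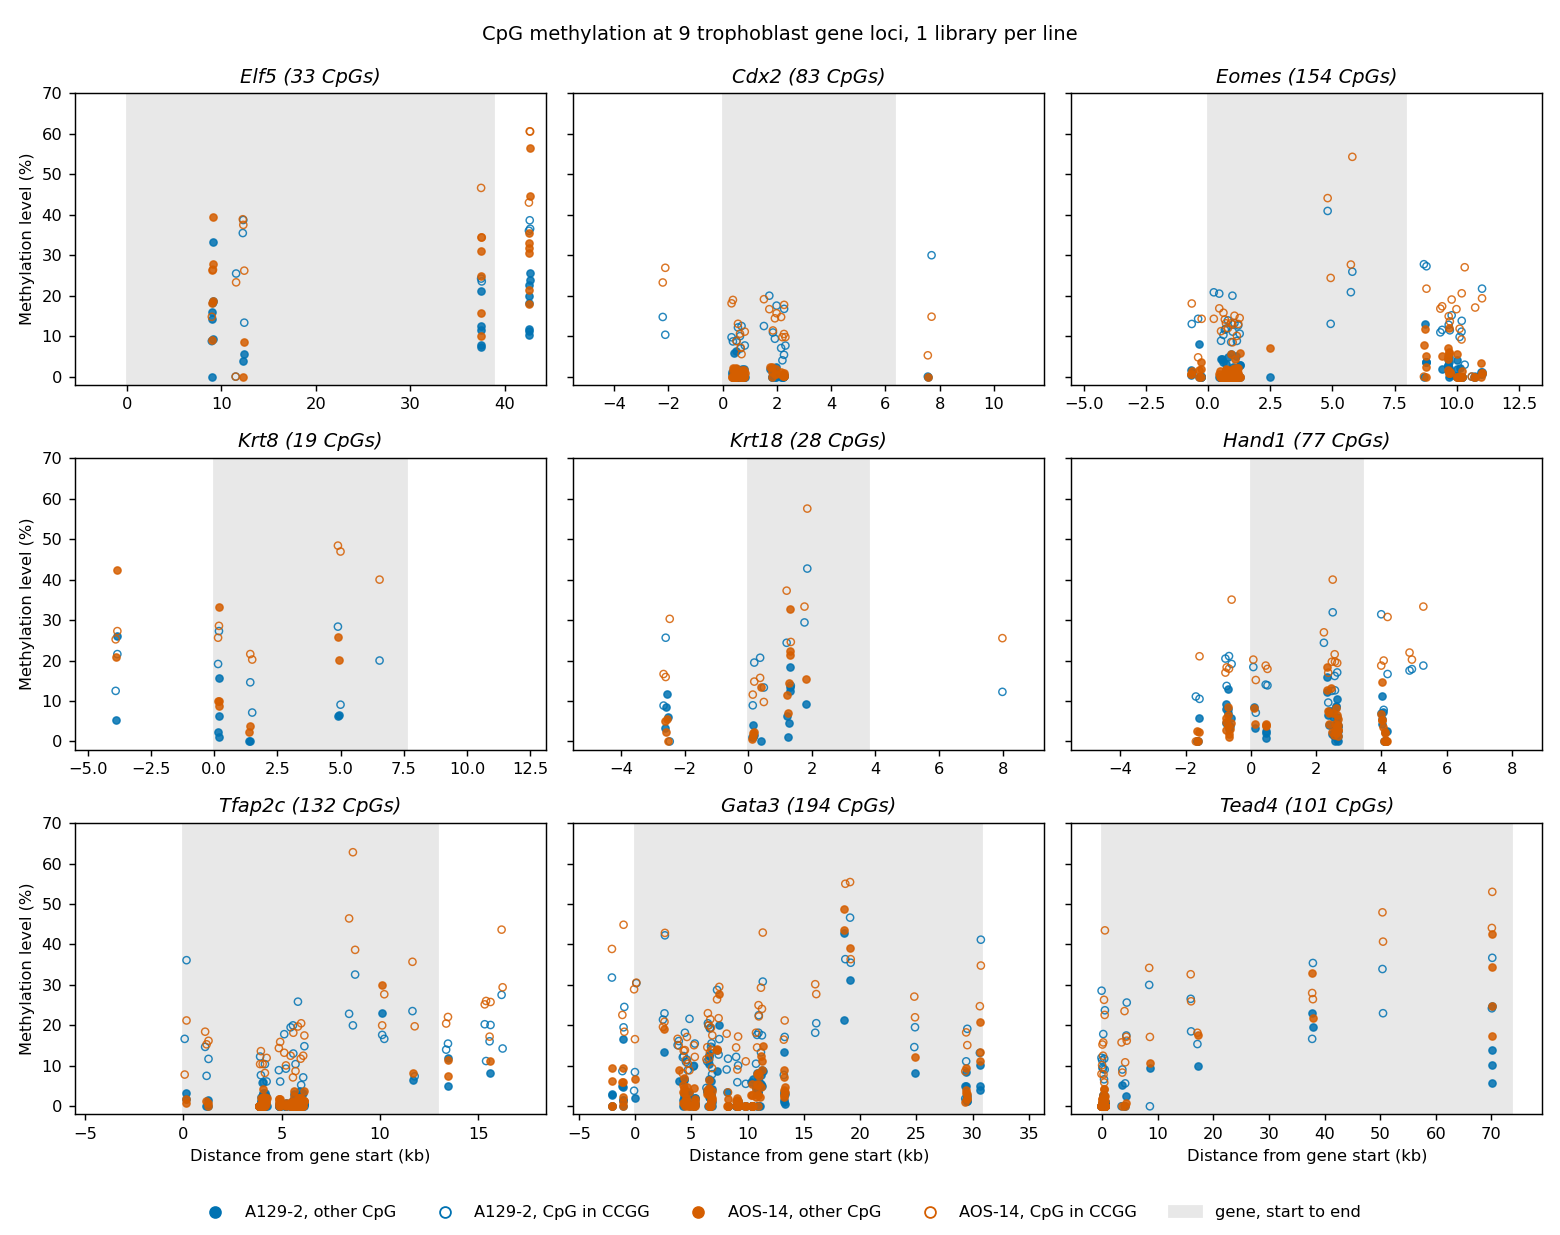
Methylation level (percent) of each compared CpG against its distance from the gene start in kb at the 9 loci, with A129-2 in blue, AOS-14 in orange, CpGs in CCGG as open circles, other CpGs as filled circles and the gene shaded. Cdx2 and Eomes carry dense CpGs near 0 with open circles above them, while the CpGs of Elf5 are few and far from the start.

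Tead4 (chromosome 6, 128227143 to 128300813, minus strand) encodes the DNA-binding partner of the Hippo pathway coactivators and acts at the start of trophectoderm formation. It joined an unmethylated start to a methylated far end. Its promoter had 2.05% (A129-2) and 2.41% (AOS-14) over 66 CpGs (Fisher's exact test, adjusted p = 0.0202). Outside CCGG the promoter was at 0.295% and 0.623%, and the difference no longer passed (Fisher's exact test, adjusted p = 0.0964). The body had 13.4% and 20.3% over 35 CpGs (Fisher's exact test on 3629 and 4719 reads, adjusted p = 5.83e-44), and 7.47% and 12.2% outside CCGG. Weighted by reads the body stood at 12.1% and 24.1%.

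Along Tead4 the runs far from the start had the higher levels. The 73 CpGs around the start (-0.1 to 0.6 kb) had 2.21% and 2.83%. The 6 CpGs 4 to 4.4 kb inside had 8.58% and 11.4%, and the 6 CpGs 70.1 to 70.2 kb inside had 19.3% and 36.1%. The pair 50.4 to 50.5 kb inside, both in CCGG, stood highest at 28.5% and 44.3%. In that far run A129-2 had the lower level at all 6 CpGs, and the 4 outside CCGG had 13.7% and 29.8%. The promoter also held the only called CpG of the 9 loci that was higher in A129-2. This CCGG site 77 bases outside the start (128300890) had 28.6% of 21 reads in A129-2 and 0 of 39 reads in AOS-14, where the exact 95% interval reaches up to 9.03% (Fisher's exact test, adjusted p = 0.0114). The 56 promoter CpGs outside CCGG reached at most 2.86% (A129-2) and 4.26% (AOS-14).

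Cdx2 (chromosome 5, 147300900 to 147307249, minus strand), the caudal-type homeobox gene that specifies trophectoderm, was nearly free of methylation. Its promoter had 1.37% (A129-2) and 2.54% (AOS-14) over 19 CpGs, which did not pass (Fisher's exact test, adjusted p = 0.0668). All 19 lie 330 to 489 bases inside the gene. Outside CCGG the promoter had 0.446% and 0.661% over 17 CpGs and the body 0.611% and 0.669% over 43. With CCGG included the body had 3.32% and 3.81% over 59 CpGs (Fisher's exact test on 10477 and 19920 reads, adjusted p = 0.00364). That difference no longer passed without CCGG (Fisher's exact test, adjusted p = 0.0530). The 2 compared CpGs of the upstream flank, both in CCGG, had 12.5% and 25.1%. They include the highest CpG of the locus in AOS-14 (147309360), with 10.3% of 174 reads and 26.9% of 435 (Fisher's exact test, adjusted p = 1.04e-04). The 3 compared CpGs of the downstream flank had 10% and 6.69%.

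Eomes (chromosome 9, 118478186 to 118486132, plus strand) encodes a T-box factor needed in trophoblast stem cells and later in mesendoderm. It resembled Cdx2, with 4.98% (A129-2) and 5.02% (AOS-14) at its promoter (16 CpGs, Fisher's exact test, adjusted p = 1) and 3.38% and 3.94% in its body (90 CpGs, Fisher's exact test, adjusted p = 0.00333). Outside CCGG the promoter had 1.002% and 1.09%. The body without CCGG had 0.837% and 0.684%, so its order turned and the difference did not pass (Fisher's exact test, adjusted p = 0.728). The downstream flank had 4.98% and 6.57% over 48 CpGs (Fisher's exact test, adjusted p = 9.15e-07), and 1.90% and 2.73% outside CCGG. All 48 lie inside Gm33460, a long noncoding RNA gene. The highest CpG of the locus in AOS-14, a CCGG site 5799 bases inside the gene, had 25.9% of 27 reads in A129-2 and 54.3% of 81 in AOS-14 (Fisher's exact test, adjusted p = 0.0923).

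Tfap2c (chromosome 2, 172545678 to 172558622, plus strand) encodes the factor AP-2 gamma, which acts in trophoblast and in germ cell precursors. Its promoter at the outer RefSeq gene end had 4 compared CpGs, too few to test, with 14.5% (A129-2) and 7.92% (AOS-14). These comprised 2 CCGG sites, at a mean of 26.4% and 14.5%, and 2 other CpGs, at 2.56% and 1.31%. The CpG-dense part of the gene lay farther in. There the 36 CpGs 3.8 to 4.2 kb inside had 2.04% and 2.28%, and the 66 CpGs 4.9 to 6.2 kb inside had 2.72% and 3.37%. Over the whole body 117 CpGs had 3.92% and 5.52% (Fisher's exact test, adjusted p = 7.56e-07). Outside CCGG the body had 0.932% and 1.21% and still passed (Fisher's exact test, adjusted p = 6.02e-04).

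Beyond the dense part, Tfap2c was more methylated. The 3 CpGs 8.4 to 8.7 kb inside, all in CCGG, had 25.1% (A129-2) and 49.3% (AOS-14). One of them (172554299) had 20% of 20 reads and 62.8% of 43 reads (Fisher's exact test, adjusted p = 0.0230). The downstream flank had 14.9% and 21.8% over 11 CpGs (Fisher's exact test, adjusted p = 2.75e-05), with 8.40% and 9.98% at the 3 CpGs outside CCGG.

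Gata3 (chromosome 2, 9857078 to 9887953, minus strand) encodes a zinc finger factor that acts in parallel with Cdx2 in trophectoderm and also in T cells. Its start differed between annotations. At the outer RefSeq gene end the promoter had 13.9% (A129-2) and 20.2% (AOS-14) over 5 CpGs (Fisher's exact test, adjusted p = 0.0488), of which 4 are CCGG sites. The RefSeq promoter table places the start at 9878600, 9353 bases farther in. Around that start 22 CpGs had 1.85% and 2.86%, and the 18 outside CCGG had 0.378% and 0.603%. The window at the outer end therefore describes a different and more methylated place than the CpG-rich start shown above.

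The body of Gata3 had 8.10% (A129-2) and 9.52% (AOS-14) over 176 CpGs (Fisher's exact test on 20682 and 24384 reads, adjusted p = 6.68e-15). Outside CCGG it had 4.01% and 4.56% (Fisher's exact test, adjusted p = 8.82e-06). Levels within the gene ranged widely. The runs 18.5 to 18.7 kb and 19.1 to 19.2 kb inside the outer end, of 3 CpGs each, had 33.6% and 37.7% in A129-2 and 49.1% and 43.6% in AOS-14. The run of 9 CpGs 10.3 to 10.4 kb inside, by contrast, had 1.39% and 1.23%. The highest CpG in AOS-14 (9868844, in CCGG) had 46.6% of 178 reads and 55.4% of 166 (Fisher's exact test, adjusted p = 0.426). The noncoding genes 4930412O13Rik and 9230102O04Rik overlap Gata3 and hold 60 and 44 of its compared CpGs. The upstream flank had 7.35% and 11.3% (Fisher's exact test, adjusted p = 0.00461), and 3.55% and 4.06% outside CCGG, which did not pass (Fisher's exact test, adjusted p = 0.620).

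Hand1 (chromosome 11, 57828713 to 57832147, minus strand), a basic helix-loop-helix gene of trophoblast giant cells and heart, kept a low but measurable level outside CCGG. Its promoter had 8.997% (A129-2) and 9.56% (AOS-14) over 22 CpGs (Fisher's exact test on summed reads, adjusted p = 0.0302). Of these CpGs 10 were lower and 12 higher in A129-2. Outside CCGG the promoter had 5.60% and 4.53%, with 10 of 15 CpGs higher in A129-2, and it did not pass (Fisher's exact test, adjusted p = 0.857). The body had 8.54% and 10.2% over 30 CpGs (Fisher's exact test, adjusted p = 0.0152), and 5.36% and 5.61% outside CCGG (Fisher's exact test, adjusted p = 0.348). The downstream flank had 7.90% and 9.75% over 19 CpGs (Fisher's exact test, adjusted p = 0.242) and the upstream flank 4.59% and 4.32% over 6 (Fisher's exact test, adjusted p = 0.825). No CpG of the locus was called, and the highest in AOS-14 (57829640, in CCGG) had 31.9% of 47 reads and 40% of 65 (Fisher's exact test, adjusted p = 0.972). The long noncoding RNA gene Gm32915 overlaps the start and holds 20 of the compared CpGs.

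Krt8 and Krt18 encode the partner keratins of simple epithelia, which form the filaments of the trophectoderm, and they lie near each other on chromosome 15. Krt8 (101996711 to 102004342, minus strand) was lower in A129-2 at 19 of 19 compared CpGs. Its body had 10.2% (A129-2) and 25.5% (AOS-14) over 9 CpGs (Fisher's exact test on 475 and 1475 reads, adjusted p = 4.04e-10), a difference of -15.2 points. With a minimum of 5 reads it was -9.46 points over 12 CpGs. Single CpGs of the body ran from 0 to 28.4% in A129-2 (median 7.14) and from 2.22 to 48.4% in AOS-14 (median 21.6). Only 4 of the 9 lie outside CCGG, with 3.19% and 13%.

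The promoter of Krt8 had 11.95% (A129-2) and 19.4% (AOS-14) over 6 CpGs, all 155 to 197 bases inside the gene (Fisher's exact test on 353 and 371 reads, adjusted p = 0.0201). The difference of -7.42 points was -1.83 with a minimum of 5 reads, which adds 1 CpG, and still passed Fisher's exact test at an adjusted p under 0.05. The 4 outside CCGG had 6.32% and 15.5%. The upstream flank had 4 CpGs, 16.4% and 28.9%, all inside the noncoding gene Gm36026. A CCGG site 4998 bases inside Krt8 (101999344) was called, with 9.09% of 22 reads in A129-2 and 46.9% of 49 in AOS-14 (Fisher's exact test, adjusted p = 0.0236). The depth of this locus was lower in A129-2, with a median of 74 reads against 92, as over all compared CpGs (79 against 97). Its share of CCGG sites, 47.4%, was the highest of the 9 loci. The part of either in the result was not tested.

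Krt18 (102028216 to 102032026, plus strand) had a promoter without a clear gap, at 7.80% (A129-2) and 7.99% (AOS-14) over 9 CpGs (Fisher's exact test, adjusted p = 0.933), with 4 lower and 5 higher in A129-2. Outside CCGG it had 1.55% and 4.01% over 5 CpGs (Fisher's exact test, adjusted p = 0.781). The body had 15.96% and 25.2% over 11 CpGs (Fisher's exact test on 916 and 2697 reads, adjusted p = 1.02e-08), with all 11 lower in A129-2. It stood at 9.32% and 17.8% outside CCGG. Its highest CpG in AOS-14 (102030074, in CCGG) had 42.7% of 110 reads and 57.6% of 278 (Fisher's exact test, adjusted p = 0.0675). The upstream flank had 9.18% and 10.8% over 7 CpGs (Fisher's exact test, adjusted p = 0.269), and 1 CpG past the gene end had 12.3% and 25.5%. As means over CpGs both keratin bodies were above 25% in AOS-14, but weighted by reads the Krt18 body had 23.7%. Of all tested bodies, 68.5% lay below that of Krt18 in AOS-14 and 69.0% below that of Krt8. At the promoters of both keratin genes the read-weighted levels in A129-2, 7.93% at Krt8 and 6.41% at Krt18, had overlapping exact 95% intervals (5.34 to 11.3% and 5.003 to 8.07%), so their order is not resolved there.

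Single CpGs of the 9 loci were tested within the table of all compared CpGs. Lower methylation in A129-2 was found at 36 of 821 CpGs at an adjusted p under 0.05, where 12.9% of all 1030368 compared CpGs had it, and higher methylation at 1 (0.154%). With a difference of at least 25 points 3 CpGs were called lower (4.08% of all) and 1 higher (0.0297%), by Fisher's exact test adjusted over all CpGs. Only 92 of the 821 had at least 25% in AOS-14, so a drop of 25 points was out of reach for the others. The 3 called lower are the CpGs of Elf5, Krt8 and Tfap2c given above, and 1 of them, at Elf5, lies outside CCGG.

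Fixed windows of 1 kb with at least 5 compared CpGs pooled more reads than single CpGs. Of 44 windows in the loci, 17 passed Fisher's exact test (adjusted p under 0.05) with the lower level in A129-2 and 0 with the higher, where 55.1% and 1.14% of all 51142 windows were. None differed by 25 points, which 5.04% of all windows did in the lower direction. The 3 windows lower by at least 10 points, a size that 29.3% of all windows reached, were the far end of Tead4 (-16.8 points), the Elf5 downstream flank (-16.5) and the last part of the Elf5 body (-12.8).

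CpGs in CCGG stood above the other CpGs of the same locus. At Cdx2 the CpGs in CCGG had means of 11.04% (A129-2) and 13.8% (AOS-14), and the others 0.555% and 0.656%. At Tead4 the means were 16.5% and 22.4% in CCGG against 1.97% and 3.31% elsewhere. Elf5 was the locus with the smallest ratio, at 24.9% and 34.4% in CCGG against 14.5% and 25.5%. In every one of the 9 loci and in both lines the CCGG mean was the higher one. Krt8 and Krt18 came next to Elf5 outside CCGG, at 6.96% and 17.7%, and 6.42% and 9.88%. Why CCGG sites read higher was not tested.

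**Figure D4:**
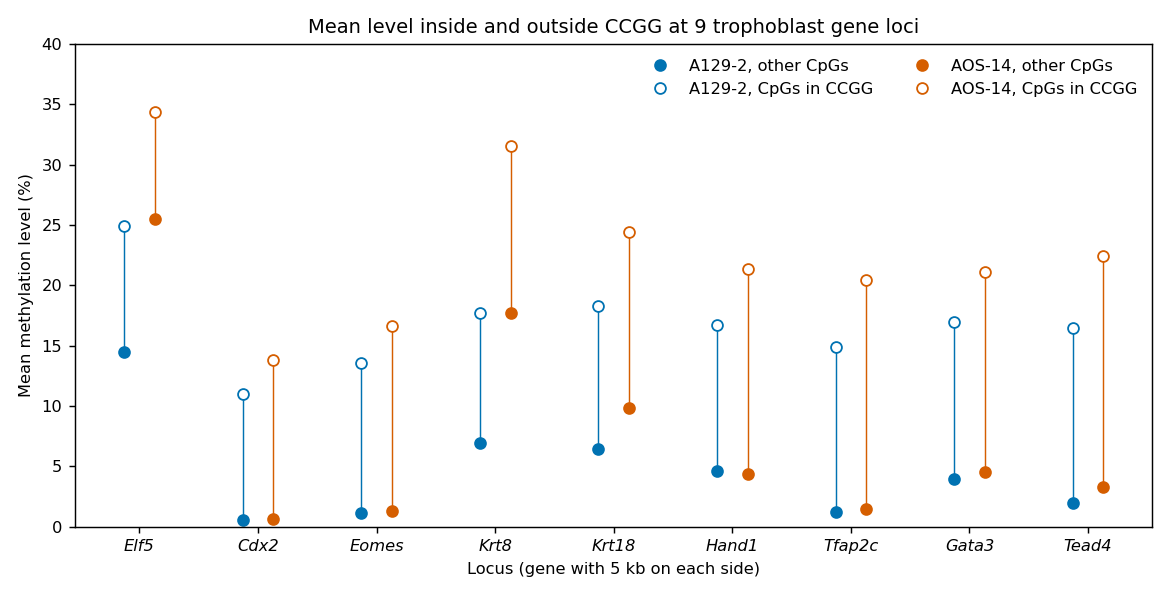
Mean methylation level (percent) of CpGs in CCGG (open circles) and other CpGs (filled circles) over each locus, with A129-2 in blue and AOS-14 in orange, joined by a line per locus and library. Open circles lie above filled ones in all 9 loci, and filled circles exceed 10% only at Elf5 (both lines) and Krt8 (AOS-14).

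Inside the genes the mean level was higher farther from the start, taken as the outer RefSeq gene end. The CpG-rich start of Gata3, 9353 bases inside that end, is therefore counted in the farthest part. Over the 9 genes, 161 CpGs outside CCGG in the first 1 kb inside the start had 0.909% (A129-2) and 1.26% (AOS-14). From 1 to 5 kb inside, 156 CpGs had 2.37% and 3.15%. The 214 CpGs farther on, gene end and downstream flank included, had 4.55% and 6.58%. In the 1 kb outside the start, 27 CpGs of 3 genes had 2.87% and 2.02%, the only part in which A129-2 had the higher mean. That excess came mainly from Hand1, whose 10 CpGs there had 6.65% and 4.28%, while the 8 of Eomes had 1.38% and 1.25%. Which genes fill each part differs, since the farthest part holds only 6 of the 9.

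Other genes of trophoblast biology gave the setting for the 9. Of a list of 50, 48 had an oriented start. Their 26 tested promoters stood at a median of 3.42% (A129-2) and 3.86% (AOS-14), and 8 were lower at an adjusted p under 0.05 (30.8% of all promoters). The median of all tested promoters was 2.91% and 3.64%, and of the 7 tested among the 9 genes 7.80% and 7.99%. These 7 include Gata3 at its outer gene end (13.9% and 20.2%) and not at its CpG-rich start (1.85% and 2.86%). Outside CCGG the median was 0.532% and 0.741% over all tested promoters, and 1.002% and 1.09% over the 5 tested among the 9 genes. The 36 tested bodies of the list of 50 had medians of 8.69% and 14.4%, with 27 lower and 1 higher, where 81.1% and 0.593% of all tested bodies were. The 9 bodies had 8.54% and 10.2%. The single higher body was that of Synb, a syncytin of retroviral origin that fuses trophoblast cells, at 20.4% and 17.9% (Fisher's exact test, adjusted p = 0.0298), named here after its values were seen.

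The largest differences in that list lay outside promoters. The downstream flank of Dppa1 had 24.8% (A129-2) and 56.4% (AOS-14) over 6 CpGs (Fisher's exact test, adjusted p = 1.83e-78), the only region of the list past 25 points. The list had 26 promoters, 36 bodies, 12 upstream flanks and 10 downstream flanks tested. Among all genes 0.5%, 1.24%, 1.85% and 1.7% of these kinds of region were lower by that much. Downstream flanks of Flt1, a receptor of vascular endothelial growth factor, and Krt19, a keratin, had 18.5% and 38.8%, and 17.1% and 36.4%. The bodies of Smarca4, a chromatin remodelling ATPase, and Krt7, a keratin of trophoblast, had 20.9% and 39.7%, and 18.9% and 34.6%. The body of Krt7, which was named for its large difference, differed by -15.7 points. The bodies of Krt8 and Krt18 differed by -15.2 and -9.28 points. Among all tested bodies 27% were lower in A129-2 by at least 10 points at an adjusted p under 0.05 (Fisher's exact test).

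Lists of naive pluripotency and endoderm genes were described in the same way. The naive list shares Sox2 and Esrrb with the list of 50. Its 8 tested promoters had medians of 2.39% (A129-2) and 3.33% (AOS-14), and the 10 endoderm promoters 4.83% and 5.81%. Bodies had 4.97% and 5.83% over 13 naive genes and 6.38% and 9.37% over 15 endoderm genes. Outside CCGG the medians of bodies were 0.914% and 1.25% in the naive list, 3.01% and 3.29% in the endoderm list and 4.69% and 5.09% in the 8 tested trophoblast bodies. Promoter medians outside CCGG were at most 1.09% in these 3 lists. No difference between the lists was tested.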

How the data were processed

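Methylation was measured in 1 bisulfite library per line. The labels' title names reduced representation sequencing and their protocol a capture kit, and which of them made these libraries was not settled here. Reads were aligned with BSMAP to mm10, per the submitters' processing notes; trimming, duplicate removal and versions were not given in the sources used here. For each cytosine the authors deposited the counts of methylated and total reads and their ratio as a fraction between 0 and 1. Levels here were recomputed from the deposited counts as percentages, for CpGs with 10 or more reads in each library. Deposited positions count from 0 and were raised by 1.

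Gene positions are those of RefSeq for GRCm38.p6 (the mm10 assembly), which give no exons here, so exon, intron and UTR were not distinguished. The strand came from the RefSeq promoter table for 27025 genes, was set by hand for Hand1, Tfap2c and Tead4, and was taken as the CpG-richer end for 10695. Regions and 1 kb windows needed at least 5 CpGs. Differences are A129-2 minus AOS-14 in percentage points. A two-sided Fisher's exact test compared summed methylated and unmethylated reads, with Benjamini-Hochberg adjustment over all genes' regions of 1 kind, all CpGs or all windows. Called differences have an adjusted p under 0.05 and a size of at least 25 points. Intervals are exact 95% Clopper-Pearson intervals for counting error only, and 1 read can cover several CpGs, so p-values from reads can be too small. The script was tested on simulated data. Tests ran in Python 3.11.15 with scipy 1.17.1, pandas 2.3.3, numba 0.67.0 and numpy 2.4.6, and plots were drawn with matplotlib 3.10.9.

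The genes, gene lists and tests were chosen with earlier results of these data known. The text names all 9 genes, for each its called CpG and window with the largest difference or else its compared CpG with the highest AOS-14 level, and the 5 listed trophoblast genes with the largest region difference that passed. Alternatives changed the read minimum, the weighting, the promoter bounds, the minimum difference and the use of CCGG. The promoter table's starts were added after seeing the data.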

Additional observations from a re-analysis of the deposited data

How the results depend on the processing

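Without CpGs in CCGG the count of regions lower in A129-2 went from 17 of 23 to 7 of 17, and stayed between 16 and 18 under the other settings, and the called CpGs went from 4 to 1. Part of that fall is regions that passed with CCGG and held fewer than 5 CpGs without it, so they were not tested again. These are the Krt8 promoter and body, the Gata3 promoter and the Tfap2c downstream flank. At Krt8 the difference outside CCGG was -9.18 points in the promoter and -9.81 in the body, over 4 CpGs each. At a minimum of 10 points instead of 25, 32 CpGs, 3 windows and 2 genes were called, and with no minimum 9 genes. Of 126 single region values under the alternatives 115 kept direction and call, though not always size. Weighting by reads kept the same test, so only direction and size could change there. Both other promoter bounds kept the same 66 promoter CpGs at Tead4 and the same 9 at Krt18. Regions left with fewer than 5 CpGs under a setting are not among the 126. A minimum of 5 reads moved the Krt8 promoter from -7.42 to -1.83 points, the Krt8 body from -15.2 to -9.46, the Eomes body from -0.561 to -1.31 and the Gata3 upstream flank from -3.95 to -6.53. Weighting by reads moved the Tead4 body from -6.91 to -11.9, the Tead4 promoter from -0.364 to -0.645, the Hand1 promoter from -0.567 to -1.52 and the Gata3 body from -1.42 to -2.15. The Hand1 promoter was -2.78 with 0.5 kb outside, and the Cdx2 body went from -0.494 to -0.784 at a minimum of 20 reads. The difference turned to 0.338 points at the Eomes promoter (0.5 kb outside), to 0.169 at the Krt18 promoter (weighted by reads), to 3.11 at the Krt18 upstream flank (minimum of 20 reads), and without CCGG to 1.07 at the Hand1 promoter and 0.153 at the Eomes body; none of these passed. Without CCGG the Tead4 promoter (-0.328), Cdx2 body (-0.0578), Hand1 body (-0.250) and Gata3 upstream flank (-0.505) no longer passed, nor did the last with a promoter of 2 kb (-3.38). The Cdx2 promoter passed at a minimum of 20 reads (-3.65). The cause of these changes was not tested. No paired analysis was possible because each line has 1 library, and for the same reason no replicate could be left out. Depth limits the loci, since 541 listed CpGs fell under the read minimum against 821 compared, 26 against 19 at Krt8. The promoters of Elf5 and Tfap2c, with 1 and 6 listed CpGs, could not be tested.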

Other observations

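The 9 loci also held 541 listed CpGs with under 10 reads in at least 1 library, which entered no comparison. Summed over their reads the level was 9.52% in A129-2 (91 of 956 reads, exact 95% interval 7.73 to 11.6%) and 9.18% in AOS-14 (218 of 2376, 8.04 to 10.4%). The 19 such CpGs of Elf5 had 17.9% of 28 reads (6.06 to 36.9%) and 40.7% of 54 reads (27.6 to 54.97%), with overlapping intervals. At Krt8 the 26 such CpGs had 14.6% of 41 reads and 4.51% of 244 reads, the opposite order from its compared CpGs. Of these 26, 14 had no reads in A129-2 and 3 had none in AOS-14, so the sums cover partly different CpGs. The same holds for all 541, of which 215 had no reads in A129-2 and 100 had none in AOS-14. No test was made on these CpGs.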
